A study of Homo sapiens with 11 samples.

Results

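The cytosolic ribosomal protein genes are the genes for the proteins of the cytoplasmic ribosome. They were taken as every symbol formed by RPL or RPS and a number, with or without a final A or X, together with RPLP0, RPLP1, RPLP2 and RPSA, and the row with the highest total was used where a symbol was repeated. This gave 77 of the 45965 genes in the table, 46 of the large subunit and 31 of the small subunit. All 77 passed the filter on low counts, which left 16324 genes for testing.

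The cells were H1299, a human lung carcinoma line known to lack p53 of its own, and each group was made to carry 1 p53 construct by transfection with 5 µg of DNA and selection in neomycin at 800 µg/ml for 14 days. The construct had 1 of the hotspot substitutions R273H and R175H in the DNA-binding domain, on either the arginine (R72) or the proline (P72) form of codon 72, a common polymorphism. There was 1 R273H R72 library, with 4 R273H P72, 3 R175H R72 and 3 R175H P72 libraries. The labels place 4 libraries in batch b1 (R273H P72 replicates 2, 3 and 4 and R175H R72 replicate 1) and the other 7 in batch b2. No library of untransfected cells or of cells with wild-type p53 was analysed here, the labels do not say whether a line is a clone, and nothing in them shows that replicates were separate cultures, so the p-values measure the spread between these libraries, which may be technical.

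A cytoplasmic ribosome holds 1 copy of nearly every ribosomal protein, so their genes are usually expressed as a coordinated set in growing cells. Most of their mRNAs start with a C followed by a run of pyrimidines, the 5′ terminal oligopyrimidine (TOP) tract, through which growth signals acting by mTORC1 and LARP1 set their translation. Several free ribosomal proteins, RPL5 and RPL11 foremost, bind MDM2, the ubiquitin ligase of p53, and haploinsufficiency of some others causes Diamond-Blackfan anaemia.

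Of the 77 genes, 62 matched an entry in the RefSeq promoter table (GRCh38.p14). A C followed by at least 4 pyrimidines, beginning within 5 bases of the annotated start on the strand of the transcript, was found in 52 of the 62 (83.9%), in 84.2% of the large and 83.3% of the small subunit promoters, against 23.5% of the other symbols in the table. Sequences are shown for the 4 genes called lower with R72 on R175H, for RPL28, which had the largest fitted change, and for RPL7A. RPL7A was the 1 gene called higher in R273H P72 than in R175H P72 cells, a call that rests on 1 library and on the batch term. The sequences run from 40 bases before to 20 bases after the start, with the tract in capitals.
RPL18: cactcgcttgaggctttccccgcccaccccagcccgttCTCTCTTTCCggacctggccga
RPL28: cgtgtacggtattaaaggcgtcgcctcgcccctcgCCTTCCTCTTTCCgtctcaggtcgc
RPL7A: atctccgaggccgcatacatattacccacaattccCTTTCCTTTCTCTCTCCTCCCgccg
RPS18: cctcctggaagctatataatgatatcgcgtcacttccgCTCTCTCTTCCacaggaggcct
RPS19: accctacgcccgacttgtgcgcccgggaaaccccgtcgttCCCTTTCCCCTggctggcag
RPS28: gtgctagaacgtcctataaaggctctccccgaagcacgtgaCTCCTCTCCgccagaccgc
The windows lie at chr19:48619159-48619218 on the minus strand for RPL18 and, all on the plus strand, at chr19:55385892-55385951 for RPL28, chr9:133348178-133348237 for RPL7A, chr6:33272035-33272094 for RPS18, chr19:41860215-41860274 for RPS19 and chr19:8321456-8321515 for RPS28. All 6 held a tract, of 9 bases in RPS28 to 21 bases in RPL7A. Where a gene had several windows, one with a tract was shown. The 6 genes were picked by their fold changes, so these windows cannot show whether a tract separates genes that fell from genes that did not. Fold changes of genes with and without a tract were not compared. The promoter windows of 300 bases held CCGGAAG, the core of ETS factor motifs, on either strand in 22 of the 62 genes (35.5%), against 12.1% of the other symbols, and AAGATGGC, the core of YY1 motifs, in 6 (9.68%), against 3.51%. These matches are descriptions of the letters, not of binding.

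Values are 3′ tag counts scaled to library size (CPM), each tag from the end of an mRNA and not divided by gene length. Library totals ran from 8346926 to 12829560 counts, and TMM factors from 0.979 to 1.03. Of the carcinoma epithelium markers, KRT8 was at 241 to 300 CPM in every library, whereas KRT19, EPCAM and CDH1 were under 1 CPM throughout. KRT18 ran from 656 to 1043 CPM, with 806, 1043, 947 and 949 CPM in R273H P72 and 818, 804 and 866 CPM in R175H P72. VIM, the filament protein of mesenchymal cells, had 1277 CPM in R273H R72, 1088, 755, 793 and 893 CPM in R273H P72, 1247, 1563 and 1270 CPM in R175H R72 and 1423, 1600 and 1827 CPM in R175H P72. The whole list of 7 summed to 2353, 2014 to 2152, 2322 to 2478 and 2544 to 2987 CPM in these groups in the same order. VIM, KRT8 and the sum were lower in every R273H P72 than in every R175H P72 library, as many ribosomal protein genes were. KRT18 was not, so the list did not move as a whole. The part of these markers in the results was not tested. Markers of endothelium summed to at most 1.56 CPM, those of fibroblasts to at most 6.92 CPM and those of erythroid cells to at most 0.356 CPM. Leukocyte markers summed to 8.63 to 20.7 CPM, with CD3E at 0 throughout. The 3 libraries numbered 4 stood apart in the B-cell gene MS4A1 (18 counts in R273H P72, 15 in R175H R72 and 42 in R175H P72, against 0 to 2 in the other libraries); their part in the results was not tested, and the main counts are given below with and without these libraries.

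The ribosomal protein genes together took 3.16% of all counts in the R273H R72 library, and the large subunit gave fewer tags than the small one in every library. The summed large subunit level was 11810 CPM in R273H R72, 11106 ± 413 CPM in R273H P72 (SD, n = 4), 12171 ± 492 CPM in R175H R72 (n = 3) and 13596 ± 1140 CPM in R175H P72 (n = 3). For the small subunit it was 18933 CPM in R273H R72, 19809 ± 496 CPM in R273H P72, 19866 ± 1484 CPM in R175H R72 and 22700 ± 980 CPM in R175H P72. Both subunits were thus highest in R175H P72, where each of the 3 libraries (21975, 23815 and 22309 CPM) lay above all 8 others in the small subunit, whereas for the large subunit the lowest R175H P72 library (12401 CPM) lay below 1 R175H R72 library (12556 CPM). The small subunit of R273H P72 and of R175H R72 did not differ beyond the spread, and R175H R72 replicate 1, of batch b1, was its highest library at 21576 CPM, against 18925 and 19096 CPM in the 2 libraries of batch b2.

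The ratio of large to small subunit was 0.624 in R273H R72, 0.561 ± 0.0292 in R273H P72, 0.614 ± 0.0355 in R175H R72 and 0.599 ± 0.0373 in R175H P72. In R273H P72 it was 0.599 in the b2 library and 0.534, 0.542 and 0.569 in the b1 libraries. The groups overlapped, and the lowest ratio outside R273H P72 was 0.556, in R175H P72 replicate 4. A summed CPM is a share of the library, so a lower sum cannot be told apart from more tags of other genes, nor a lower RNA amount per cell from fewer expressing cells.

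**Figure D1:**
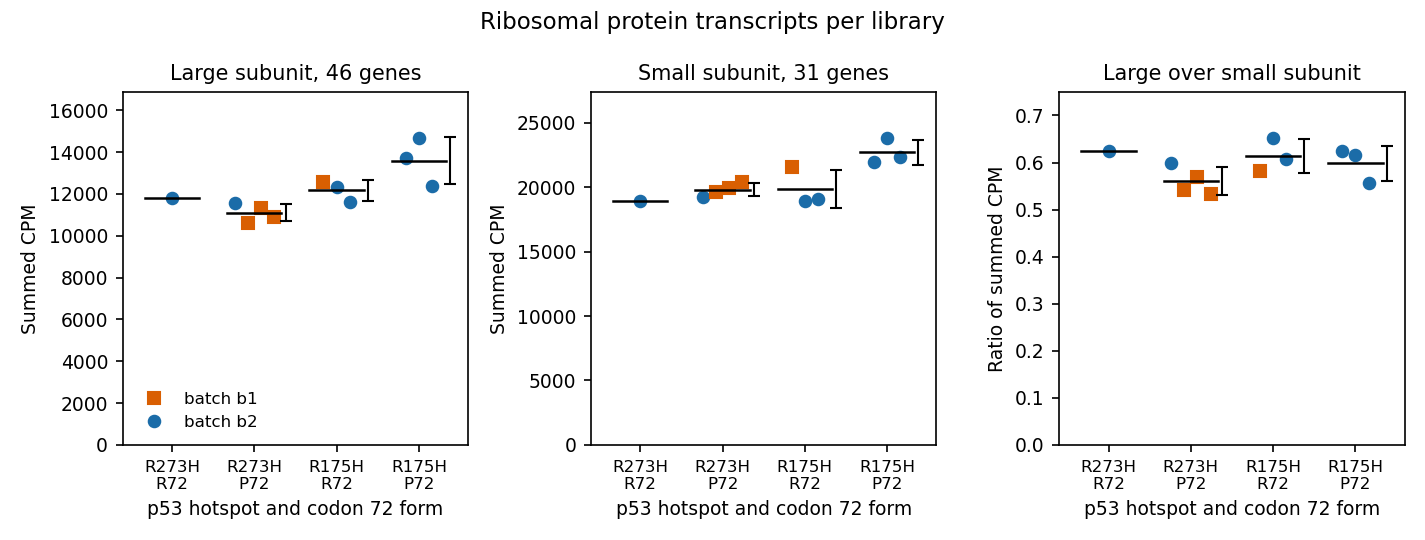
Summed CPM of the 46 large and 31 small subunit genes and their ratio (y axes, from 0) in the 11 libraries of the 4 groups (x axis); points are libraries, marked by batch, lines are means and error bars are SD. The 3 R175H P72 libraries are the highest for the small subunit, and the ratios lie between 0.534 and 0.652 in all libraries.

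Levels differed widely between genes of complexes with 1 copy of each protein: mean CPM over the 11 libraries ran from 8.28 for RPL19 to 2864 for RPS10, a ratio of 346. The median gene of the large subunit had 163 CPM and that of the small subunit 326 CPM. Mean levels were under 50 CPM for 15 of the genes and over 1000 CPM for 9. The table held no row with a ribosomal pseudogene symbol, so tags from near-identical pseudogene copies cannot be followed, and the levels of single genes are uncertain to that extent. Mean CPM and the number of annotated pseudogenes of the gene had a Spearman rho of -0.278 across the 77 genes, which share their libraries.

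The 5 most abundant were RPS10, RPS14, RPS29, RPS24 and RPL41, which took 29.5% to 34.6% of the ribosomal protein tags of a library. RPS10, a protein of the small subunit head, had 2682 CPM in R273H R72, 2640 ± 154 CPM in R273H P72, 2842 ± 280 CPM in R175H R72 and 3245 ± 124 CPM in R175H P72. RPS24, another small subunit protein mutated in Diamond-Blackfan anaemia, had 1485 CPM in R273H R72, 2072 ± 195 CPM in R273H P72, 1670, 1486 and 1835 CPM in R175H R72 and 1899 ± 105 CPM in R175H P72. RPL41, the shortest protein of the ribosome, had 1366 ± 160 CPM in R273H P72 and 1776 ± 367 CPM in R175H P72. The 3 least abundant were RPL19, RPSA and RPS26. RPS26, which lies at the mRNA exit, had 13 CPM in R273H R72, 13.2 ± 1.11 CPM in R273H P72, 13.1 ± 4.3 CPM in R175H R72 and 13.4 ± 1.4 CPM in R175H P72. RPSA, the small subunit protein also named for laminin binding, had 11.1, 11.9 ± 0.447, 11.6 ± 0.782 and 12.7 ± 1.9 CPM in these groups in the same order.

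**Figure D2:**
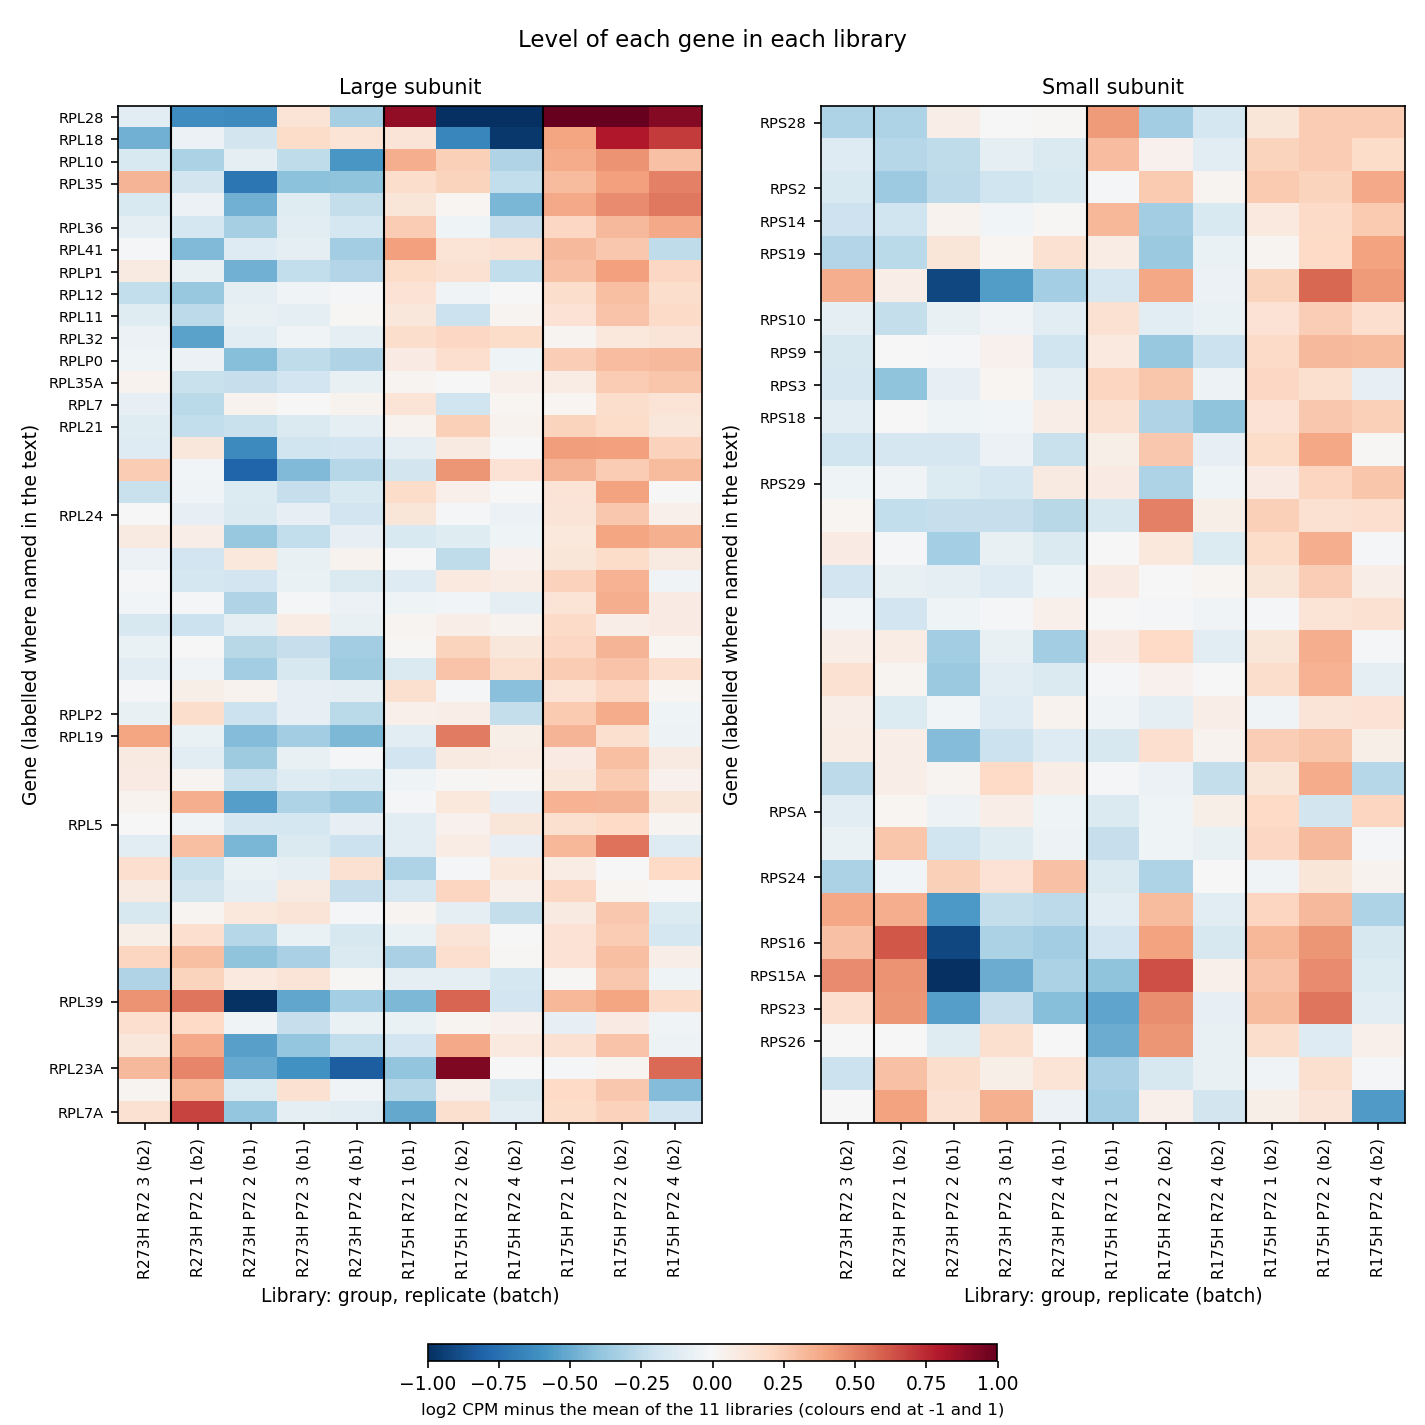
Level of each of the 77 genes (rows, by subunit, ordered by the fold change of R273H over R175H on P72, with the genes named in the text labelled) in each library (columns, by group), as log2 CPM minus the mean of the 11 libraries. The R175H P72 libraries are above the mean for most genes, RPL28 and RPL18 span the widest colours, and RPS16, RPS15A, RPL39 and RPL23A are low in the b1 libraries of R273H P72.

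The first comparison asked whether the codon 72 form mattered on R175H, a change known to destabilise the fold of the DNA-binding domain. With R72, 4 ribosomal protein genes fell against P72 and none rose: RPL18 of the large subunit and RPS18, RPS19 and RPS28 of the small subunit. They were 5.19% of the 77 genes, where 0.815% of all genes tested were called lower, 0.319% higher and 1.13% in either direction (adjusted p under 0.05 in edgeR's quasi-likelihood test, Benjamini-Hochberg adjustment over the 16324 genes, with batch as a covariate). Values below 0 were spread over the whole set: the median log2 fold change was -0.14 (-0.15 for the large and -0.14 for the small subunit), against -0.00093 for all genes tested, and 62 of 77 genes had a negative value, against 50.1% of all genes tested. At an unadjusted p under 0.05 there were 25 lower genes (32.5%, against 7.2% of all genes tested) and no higher one (against 6.41%; 13.6% in either direction).

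RPL18, a large subunit protein mutated in Diamond-Blackfan anaemia, had 104, 60.7 and 48.9 CPM in R175H R72 and 125, 166 and 155 CPM in R175H P72. No R72 library reached a P72 library, and the R72 library of batch b1 was the closest to them. The fitted log2 fold change was -1.27 (SE 0.22), a 2.41-fold lower level, with an adjusted p of 0.039 by edgeR's quasi-likelihood test. RPL18 shares a stretch of its locus with SPHK2 on the opposite strand, which had 1570 counts in all libraries together against 11379 for RPL18; the sources used here do not give the strand setting of the counting.

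RPS18, a protein of the small subunit head, had 1425, 1040 and 970 CPM in R175H R72 and 1413, 1543 and 1506 CPM in R175H P72. The b1 library of R72 lay within the P72 range and both b2 libraries lay below it. The log2 fold change was -0.47 (SE 0.10, adjusted p = 0.022, edgeR). RPS19, the gene most often mutated in Diamond-Blackfan anaemia, had 1665, 1218 and 1509 CPM in R72 and 1604, 1811 and 2088 CPM in P72, again with the b1 library of R72 inside the P72 range, and a log2 fold change of -0.44 (SE 0.10, adjusted p = 0.037, edgeR). RPS28, which sits next to RPS26 at the mRNA exit, had 1009, 591 and 667 CPM in R72 and 819, 896 and 897 CPM in P72, so its b1 library was the highest of the 6; its log2 fold change was -0.41 (SE 0.092, adjusted p = 0.033, edgeR). The calls of RPS18, RPS19 and RPS28 thus rest on the 2 b2 libraries of R72 and on the batch term. Without that term none of the 77 genes was called, and the log2 fold changes of RPS18, RPS19 and RPS28 were -0.377, -0.326 and -0.205. In batch b2 alone 6 genes were called, all lower, among them RPL18, RPS18 and RPS28 but not RPS19 (-0.427, adjusted p = 0.122, edgeR).

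The count of 4 also rests on single libraries. For the fits that left out a library, the share of all genes called is not given. No gene was called without R175H R72 replicate 2 or without R175H P72 replicate 2, 1 was called without R175H P72 replicate 4 or R273H P72 replicate 3, and 2 without R273H P72 replicate 4. Without R175H R72 replicate 1 or R273H P72 replicate 1 there were 8. Over the 11 fits that each left out 1 library, RPS18 was called in 8, RPL18 and RPS28 in 6 and RPS19 in 4.

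RPL28, a large subunit protein with no bacterial counterpart, had the largest fitted value but was not called in the main fit. It had 104, 26.8 and 18.8 CPM in R175H R72, against 118, 142 and 106 CPM in R175H P72. The 2 R72 libraries of batch b2 stood far below the P72 libraries, and the b1 library just below the lowest of them. The log2 fold change was -1.97 (SE 0.47) with an adjusted p of 0.144 by edgeR's quasi-likelihood test. DESeq2 gave an adjusted p of 0.00165 and limma-voom one of 0.00156. By edgeR, RPL28 was called without R175H R72 replicate 1 (adjusted p = 0.0113) and without R273H P72 replicate 1 (adjusted p = 0.0125). In the other fits that left out 1 library it was not called. In batch b2 alone its log2 fold change was -2.41.

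**Figure D3:**
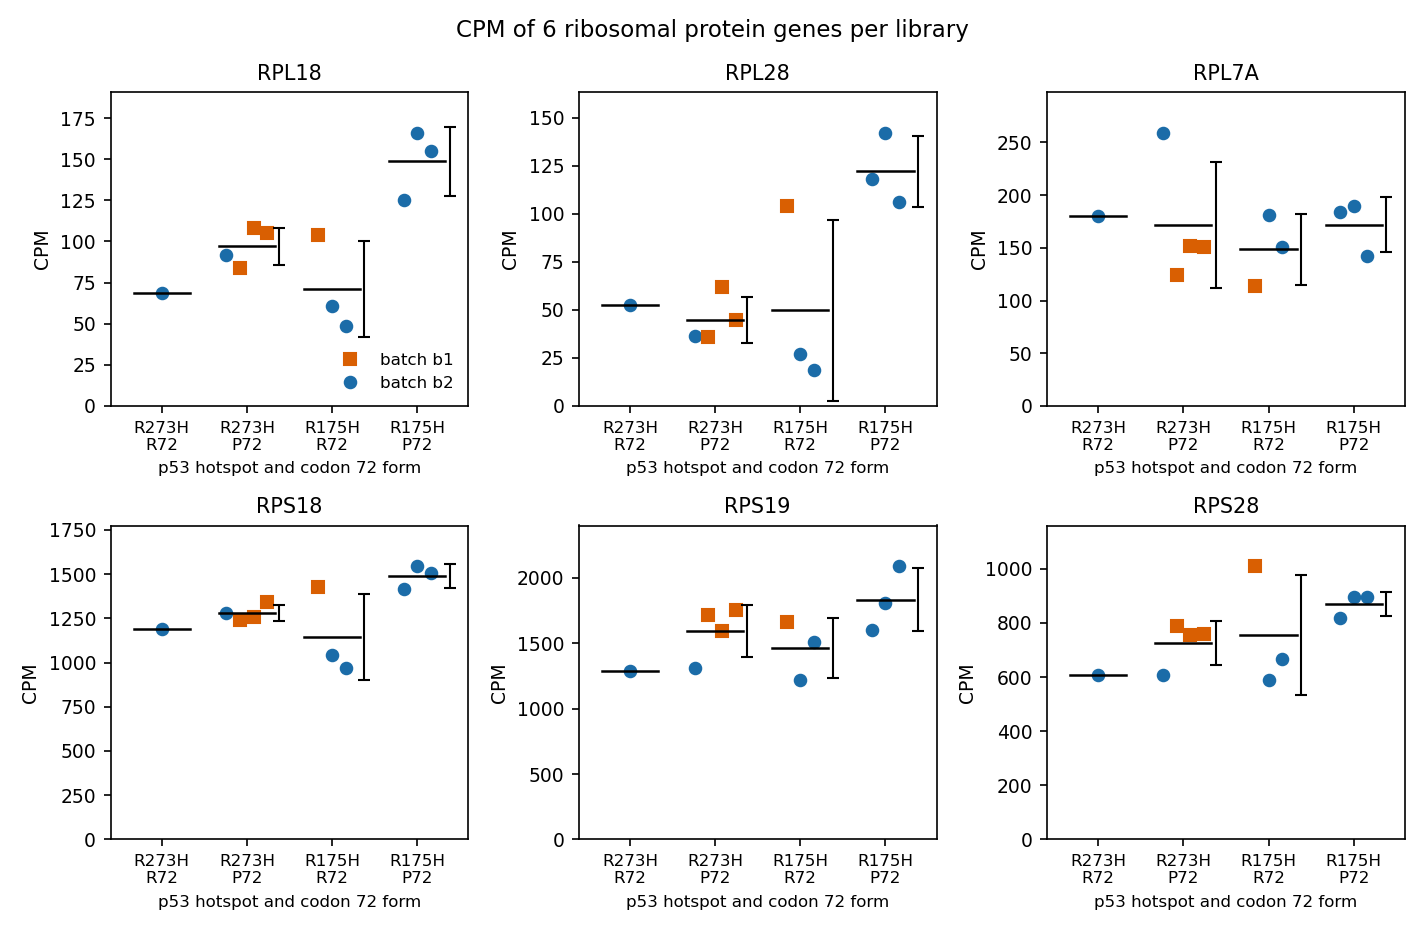
CPM (y axis, from 0) of RPL18, RPL28, RPL7A, RPS18, RPS19 and RPS28 in the 11 libraries of the 4 groups (x axis); points are libraries, marked by batch, lines are means and error bars are SD. In R175H R72 the b1 library of RPL28 (104 CPM) is apart from the b2 libraries (26.8 and 18.8 CPM), and RPL7A is highest in the b2 library of R273H P72 (259 CPM).

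Counted by library, without a model, 19 genes (24.7%) were lower in all 3 R72 than in all 3 P72 libraries on R175H, against 6.15% of all genes tested, and 1 gene was higher, against 6.81%. Of the 19, 16 were of the large subunit (34.8% of its genes) and 3 of the small (9.68%), whose share was near the 6.15% of all genes tested. Without the libraries numbered 4, 2 genes were called. RPS19 was lower (log2 fold change -0.46, adjusted p = 0.028, edgeR). RPL23A, which had not been called with them, was higher (0.85, adjusted p = 0.0036, edgeR). RPL23A then had 18.2 CPM in the b1 and 45.5 CPM in the b2 library of R72, against 23.7 and 24.3 CPM in P72. Its call thus rests on the b2 library of R72 and on the batch term. The medians without the libraries numbered 4 were -0.15 in both subunits.

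On R273H the single R72 library was set against 4 P72 libraries and its spread was taken to be that of the other groups. None of the 77 genes was called by edgeR, as none of the 16324 genes was (0%), 6 had an unadjusted p under 0.05 (7.79%, against 7.75% of all genes tested), and DESeq2 called 3 (0.686% of all genes tested). The medians were 0.069 for the large and 0.089 for the small subunit. RPL18 had 68.5 CPM in R273H R72 and 97 ± 11.3 CPM in R273H P72, a log2 fold change of -0.15 (SE 0.31). RPL28 had 52.3 CPM in R273H R72, within the 36.1 to 61.7 CPM of R273H P72.

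Whether R72 acted differently on the hotspots was tested directly, as the effect on R273H minus that on R175H. No ribosomal protein gene was called by edgeR, where 0.0306% of all genes tested were, 17 had an unadjusted p under 0.05 (22.1%, against 10.2% of all genes tested), DESeq2 called 3 (0.845% of all genes) and limma-voom 1 (0.0368%). The median difference in log2 fold change was 0.23 for the large and 0.15 for the small subunit (R273H minus R175H), and 57 of 77 values were positive. RPL28 had the largest, 3.08 (SE 0.87, adjusted p = 0.318 by edgeR, 0.0249 by DESeq2 and 0.0481 by limma-voom, and 0.00455 by edgeR in batch b2 alone), and RPL18 had 1.12 (SE 0.40, adjusted p = 0.391, edgeR). The call for RPL28 thus depends on the tool and on the handling of batch, with 1 R273H R72 library behind the estimate.

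Between the hotspots on P72 more of the ribosomal protein genes were called, with 4 against 3 libraries. In R273H P72 cells 25 of 77 were lower than in R175H P72 cells (32.5%, against 7.6% of all genes tested) and 1 was higher (1.3%, against 6.95%); 14.6% of all genes tested were called in either direction. The decreases were in both subunits, 16 of 46 large and 9 of 31 small subunit genes, with medians of -0.25 and -0.22 against 0.0030 for all genes tested. In 38 genes (49.4%) all 4 R273H libraries were below all 3 R175H libraries, against 14.1% of all genes tested, and in none were they all above, against 14%. This comparison shares the R175H P72 libraries with the R72 comparison on R175H, so the lower values in both are not independent of each other. The batches are also unequal here: 3 of 4 R273H P72 libraries are of b1 and all R175H P72 libraries are of b2.

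**Figure D4:**
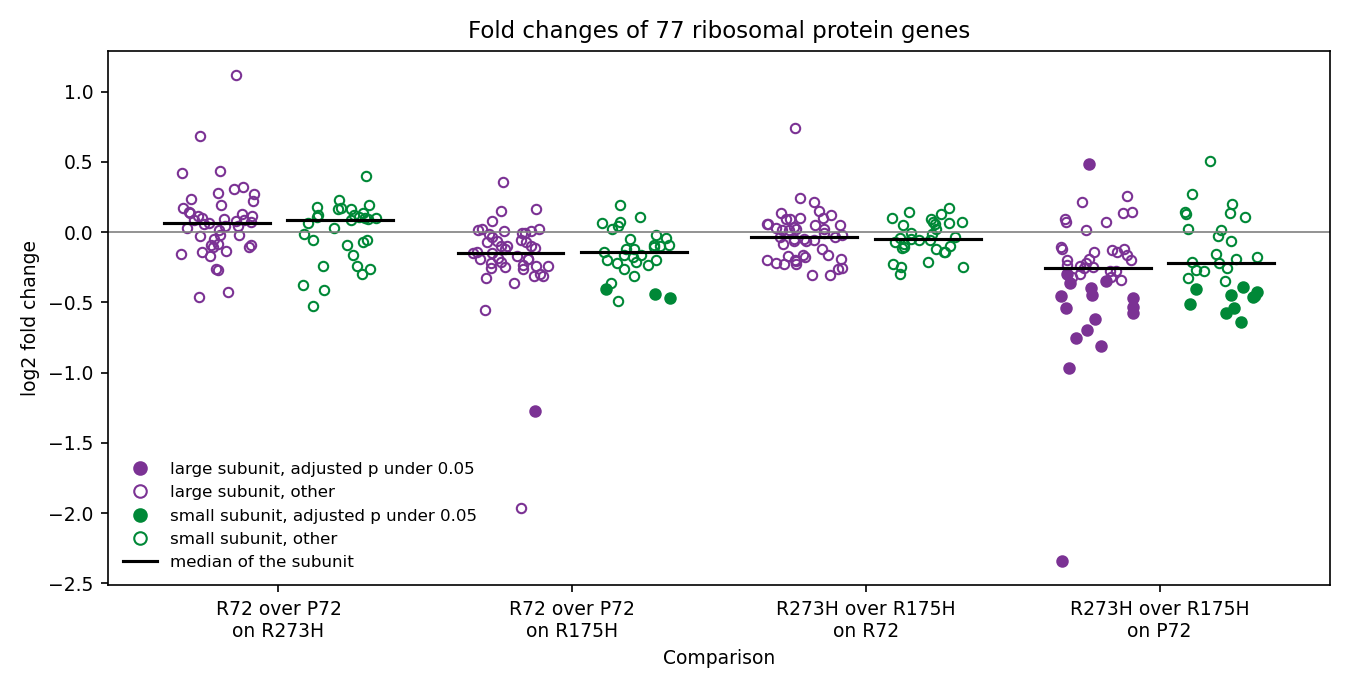
The log2 fold change (y axis) of each of the 77 genes in 4 comparisons (x axis), by subunit; filled points passed an adjusted p under 0.05 and lines are medians. The medians of both subunits lie near each other in every comparison and are lowest for R273H over R175H on P72 (-0.25 and -0.22).

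Among the large subunit genes, RPL28 was again the lowest, with 36.5, 36.1, 61.7 and 44.6 CPM in R273H P72 against 118, 142 and 106 CPM in R175H P72. The groups did not overlap, and the fitted log2 fold change of -2.34 (SE 0.49, adjusted p = 0.025, edgeR) was larger than the -1.45 (adjusted p = 0.128) without the batch term. RPL18 had 91.5, 83.8, 108 and 105 CPM in R273H P72 against 125, 166 and 155 CPM, and a log2 fold change of -0.97 (SE 0.23, adjusted p = 0.026, edgeR). RPL10, a late-joining protein of the large subunit that is close to the catalytic centre, had 61.7, 71.7, 64.5 and 51.3 CPM in R273H P72 against 99.5, 105 and 94.1 CPM, with -0.81 (SE 0.17, adjusted p = 0.0063, edgeR). RPL35, which lines the mouth of the exit tunnel, had 90.6, 62.5, 77.6 and 77.7 CPM in R273H P72 against 128, 137 and 146 CPM, with -0.76 (SE 0.15, adjusted p = 0.0044, edgeR). In all 4 genes the groups did not overlap, the b2 library of R273H P72 included.

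RPL36 and RPL41 were also among the 8 lowest, with log2 fold changes of -0.62 and -0.58. RPL36 overlaps LONP1, which had 10612 counts against 9322 for RPL36, on the opposite strand, and HSD11B1L on its own strand, so its tags are the least certain of these. At the stalk, which recruits the elongation factors, RPLP0 and RPLP1 fell by 0.45 and 0.54 on the log2 scale (adjusted p = 0.0069 and 0.013, edgeR), whereas RPLP2, with 484 ± 69.5 CPM in R273H P72 and 593 ± 84.2 CPM in R175H P72, was not called (-0.20, SE 0.14). Of the 2 proteins best known for binding MDM2, RPL11 fell by 0.47 on the log2 scale (368 ± 28.5 CPM against 456 ± 22.7 CPM, adjusted p = 0.0027, edgeR), and RPL5 was not called (191 ± 8.79 CPM against 226 ± 13.9 CPM, -0.14, SE 0.094). The members of the stalk and of this MDM2-binding pair were thus not called alike, and the difference between them was not tested.

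In the small subunit RPS28 was the lowest, with 607, 788, 754 and 760 CPM in R273H P72 against 819, 896 and 897 CPM in R175H P72. The lowest R273H library was that of batch b2, and the log2 fold change was -0.64 (SE 0.10, adjusted p = 0.00032, edgeR) with the batch term and -0.26 (adjusted p = 0.279) without it. RPS14, a protein of the small subunit platform, had 2112 ± 151 CPM in R273H P72 and 2475 ± 140 CPM in R175H P72, with -0.52 (SE 0.11, adjusted p = 0.0023, edgeR), and RPS10 had -0.45 (SE 0.092, adjusted p = 0.0023, edgeR). RPS18 and RPS19 had -0.39 and -0.46 in this comparison. RPS3 and RPS9, both at the mRNA entry, had -0.41 and -0.43, and RPS9 was one of the weakest calls (adjusted p = 0.044, edgeR). RPS24 and RPSA had values of 0.020 and -0.024 and were not called, and RPS29, with -0.33, had an adjusted p of 0.062 (edgeR). Leaving out 1 library at a time, RPL35, RPL36, RPS10, RPS14 and RPS28 were among the genes called in all 11 fits.

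RPL7A, a large subunit protein whose introns hold snoRNAs, was the 1 gene called higher in R273H P72. It had 259, 124, 152 and 151 CPM in R273H P72 and 184, 190 and 142 CPM in R175H P72, and both groups had a mean of 172 CPM. The call (log2 fold change 0.49, SE 0.14, adjusted p = 0.029, edgeR) rests on the b2 library at 259 CPM and on the batch term: without the term the value was -0.001, and without that library 0.275 (adjusted p = 0.496). The smallest decreases among the called genes were those of RPL24, RPL21, RPL7, RPS18 and RPL35A, with log2 fold changes of -0.30, -0.35, -0.36, -0.39 and -0.40.

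The call count rests in part on single libraries and on how batch is handled. For these other fits the share of all genes called is not given. Without R273H P72 replicate 1, 15 genes were called, and without R175H R72 replicate 1, 17 were. In batch b2 alone, with 1 R273H P72 library, 12 were called, all of them among the 26. Without the batch term 24 were lower and none higher, 14 of them among the 26; the 12 that were then not called were RPL7, RPL7A, RPL18, RPL28, RPL32, RPL41, RPS3, RPS9, RPS14, RPS18, RPS19 and RPS28. RPL18 and RPL28 lost their calls without R175H P72 replicate 2 or R175H R72 replicate 2, and also RPL18 without R175H P72 replicate 4 and RPL28 without R175H P72 replicate 1, with adjusted p up to 0.073 (edgeR) for both. RPL10, RPLP0 and RPLP1 lost theirs without R175H R72 replicate 1 alone (adjusted p = 0.0545, 0.0818 and 0.117, edgeR), and RPL11, RPL12, RPL35A, RPS2 and RPS19 without R273H P72 replicate 1 alone (0.0506, 0.0586, 0.142, 0.237 and 0.175, edgeR). RPL41 lost its call without either of these 2 libraries (adjusted p up to 0.172, edgeR). RPL7, RPL7A, RPL21, RPL24, RPL32, RPS3, RPS9 and RPS18 lost theirs without any of several libraries, one of them always R273H P72 replicate 1 or R175H R72 replicate 1. Without the libraries numbered 4 the count was 25 (22 lower and 3 higher), and the medians were -0.28 and -0.24.

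On R72 the 1 R273H library was set against 3 R175H libraries. No ribosomal protein gene was called by edgeR, DESeq2 or limma-voom (0.0429% of all genes tested were called by edgeR), and 1 had an unadjusted p under 0.05 (1.3%, against 4.62% of all genes tested). The medians were -0.034 for the large and -0.047 for the small subunit. The test of whether the hotspots differ less on R72 than on P72 is the same as that between the R72 effects, given above.

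Single ribosomal protein genes differed between the batches in both directions. In b2 against b1 libraries, 11 genes were higher (14.3%, against 5.61% of all genes tested) and 4 lower (5.19%, against 3.6%); 9.21% of all genes tested were called in either direction. RPL23A, RPL39 and RPS23, named here after their values were seen, were the highest of those called, with log2 fold changes of 1.05, 0.93 and 0.80. RPS28, RPS14, RPS19 and RPL7 were lower (-0.50, -0.38, -0.33 and -0.26), and all 4 are also among the genes lower in R273H P72 than in R175H P72. RPS16, whose tail reaches the tRNA in the peptidyl site, had 1074 CPM in the b2 library of R273H P72 and 372, 561 and 548 CPM in the b1 libraries, and was also named after its values were seen. The count of 15 rests on single libraries: it was 4 without R175H R72 replicate 1, 5 without R273H P72 replicate 1, 8 or 9 without R273H P72 replicates 2, 3 or 4, R175H R72 replicate 2 or R175H P72 replicates 1 or 2, and 23 without the libraries numbered 4.

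Position and base composition moved with the changes. Of the 77 genes, 12 lie on chromosome 19, among them RPL18, RPL28, RPS19 and RPS28. Their median log2 fold change was -0.38 for R72 over P72 on R175H, against -0.12 for the other 65, and -0.52 for R273H over R175H on P72, against -0.22. The last 500 bases of their transcripts had a median GC content of 56.1%, against 47.3% for the others. The other 1207 tested genes of chromosome 19 had medians of -0.072 and -0.086 in these comparisons, against 0.0051 and 0.012 for the 15040 elsewhere, and a median GC content of 55.9%. The part of the position itself was not tested. The log2 fold change and this GC content had a Spearman rho of -0.436 on R175H and -0.484 on P72, across genes of the same libraries. By library, the slope of expression on 3′ GC content (log2 per 10 percentage points) was -0.0809 in R273H R72, -0.0561 in the b2 library and 0.0433 to 0.0591 in the b1 libraries of R273H P72, -0.0855 and -0.0521 in the b2 libraries and 0.0716 in the b1 library of R175H R72, and 0.00495 to 0.026 in R175H P72. After a correction for GC content the medians on R175H were -0.16 for the large and -0.14 for the small subunit and those on P72 were -0.29 and -0.27; RPL18 (adjusted p = 0.049) and RPS18 (0.039) were still called on R175H by edgeR, RPS19 (log2 fold change -0.388 after and -0.442 before the correction, adjusted p = 0.111) and RPS28 (-0.381 and -0.406, adjusted p = 0.075) were not, and on P72 29 genes were lower and 1 higher.

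**Figure D5:**
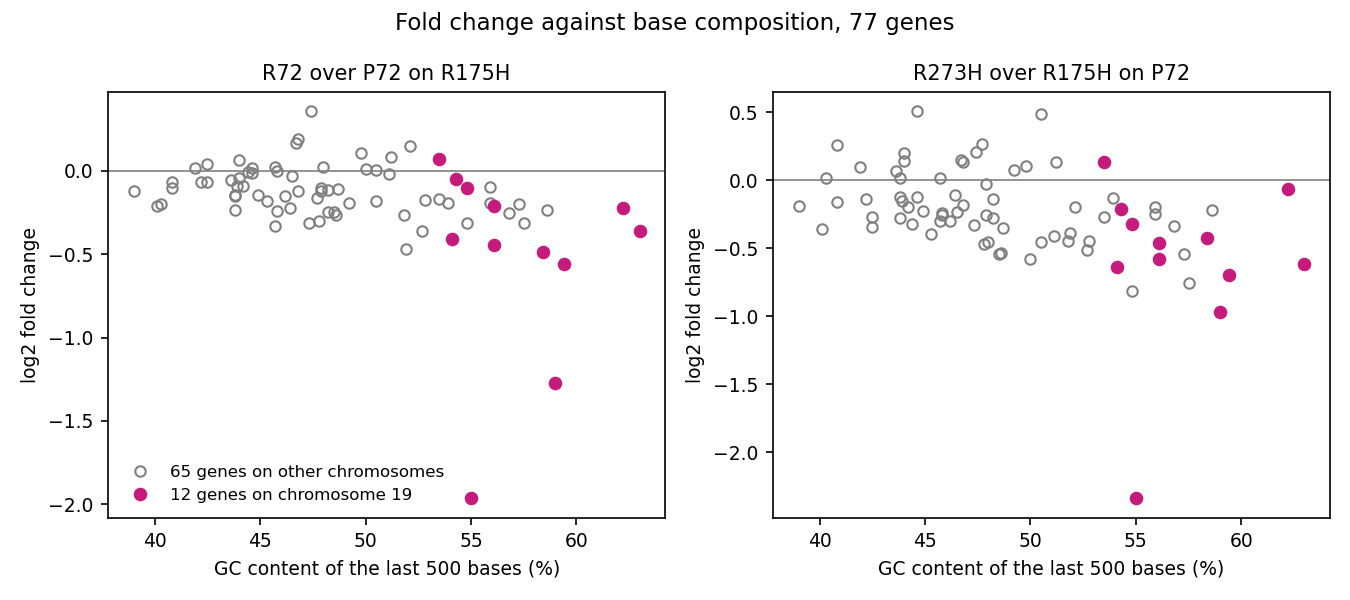
The log2 fold change (y axis) of each of the 77 genes against the GC content of the last 500 bases of its transcripts (x axis, percent), for R72 over P72 on R175H and for R273H over R175H on P72, with the genes of chromosome 19 filled. The 12 genes of chromosome 19 lie to the right and mostly below 0.

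Described by function, the 17 listed genes of Diamond-Blackfan anaemia held 3 of the 4 genes lower with R72 on R175H (RPL18, RPS19 and RPS28; 17.6% of the list, against 5.19% of the 77 and 0.815% of all genes tested) and had a median of -0.235. On P72, 7 of them were lower in R273H (RPL11, RPL18, RPL35, RPL35A, RPS10, RPS19 and RPS28; 41.2%, against 32.5% of the 77 and 7.6% of all genes tested), with a median of -0.28. Of 12 listed MDM2-binding ribosomal proteins none was called on R175H by edgeR, 2 were by DESeq2 and 1 was by limma-voom, with a median of -0.13. By edgeR, 3 had an unadjusted p under 0.05 on R175H (25%, against 32.5% of the 77 and 13.6% of all genes tested). RPS14, RPL11 and RPS3 were lower in R273H on P72 (25%, against 32.5% of the 77 and 7.6% of all genes tested), with a median of -0.24. Proteins with counterparts in all domains of life, 18 of the large and 15 of the small subunit, had medians of -0.18 and -0.14 on R175H. There 0 and 1 (RPS18) were called lower (0% and 6.67%, against 5.19% of the 77 and 0.815% of all genes tested). On P72 their medians were -0.26 and -0.22, with 6 lower in each subunit (33.3% and 40%, against 32.5% of the 77 and 7.6% of all genes tested). The 28 large and 16 small subunit proteins outside that list had medians of -0.082 and -0.14 on R175H and of -0.25 and -0.21 on P72.

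Other TOP mRNAs had medians on the same side of 0 as the ribosomal protein genes in these comparisons, but not for R72 over P72 on R273H, where theirs was -0.028. Of 20 tested, EEF2, the translocation factor of elongation, was called lower with R72 on R175H (log2 fold change -0.40, SE 0.087, adjusted p = 0.024, edgeR), with a median of -0.16 for the list. EEF2 had 2326, 1760 and 1908 CPM in R72 and 2244, 2586 and 2578 CPM in P72. EEF1D and GNB2L1 (RACK1) were next, with -0.28 and -0.29, and were not called. On P72, 7 were lower in R273H (35%, against 7.6% of all genes tested) and none was higher, with a median of -0.24: GAS5, a host of snoRNAs, had -0.50, EEF2 -0.49 and the initiation factor EIF4B -0.43. GAS5 had 249, 243, 261 and 250 CPM in R273H P72 and 374, 381 and 332 CPM in R175H P72, so the groups did not overlap.

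Most of the factors that build ribosomes were not called between the hotspots, and those called were in both directions. Of 47 tested genes for ribosome assembly and rRNA synthesis, none was called on R175H by edgeR or limma-voom (9 had an unadjusted p under 0.05, 19.1% against 13.6% of all genes tested, and DESeq2 called 3), and the median was -0.043; NOB1, BOP1 and NOP10 had the smallest p. On P72, 5 were higher (10.6%, against 6.95% of all genes tested) and 6 lower (12.8%, against 7.6%) in R273H, and the median was 0.13. NOB1, the nuclease of the last cut of the small subunit rRNA, was the lowest by p, with 86.4, 93.3, 98.3 and 90.4 CPM in R273H P72 against 142, 144 and 125 CPM in R175H P72 (log2 fold change -0.76, SE 0.11, adjusted p = 9.8e-05, edgeR). POLR1D, a subunit shared by RNA polymerases I and III, had -0.61, and NOP10, of the pseudouridylation complex, had -0.49.

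Of 12 relatives of ribosomal protein genes outside the set, such as RPL36AL and RPS27L, 8 passed the filter. None was called on R175H or on P72 by edgeR, DESeq2 or limma-voom, with none and 3 at an unadjusted p under 0.05 (37.5% on P72, against 27.8% of all genes tested). Their medians were 0.15 and 0.17, above 0 where those of the ribosomal protein genes were below. RPL7L1 had 0.43 (adjusted p = 0.091), RPL36AL 0.81 (adjusted p = 0.093) and RPS27L 0.29 (adjusted p = 0.139) on P72 by edgeR, and RPL26L1 had 0.31 on R175H.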

How the data were processed

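RNA of 11 H1299 libraries was sequenced as 75-base single-end reads of QuantSeq 3′ tags, per the labels' protocols. The authors deposited 1 table of expected counts per gene, all whole numbers; Bowtie2, RSEM 1.2.12, DESeq2 and build hg38 are named in the submitters' processing notes, and the sources used here do not give the strand setting. The 77 genes and the gene lists were chosen with earlier results of these data known. Genes were filtered with filterByExpr (minimum count 10), scaled by TMM and fitted with edgeR 4.0.16 (R 4.3.3; robust quasi-likelihood, 4 groups plus batch); Benjamini-Hochberg adjustment covered 16324 genes, with a threshold of 0.05. The code was tested on simulated data. Named genes were those called in the other comparisons, the 8 highest and 8 lowest called between hotspots on P72, the 5 most and 3 least abundant, RPLP0, RPLP1, RPLP2, RPSA, RPL5 and RPL11, and in other lists the 3 smallest p. Some genes this rule names are not reported here. Annotation and 3′ GC content (last 500 bases) came from GENCODE 29, promoters from RefSeq. Alternatives used RLE, library totals, TMM without these genes, other filters, DESeq2 1.42.0, limma-voom (limma 3.58.1), no batch term, batch b2 alone, a replicate block, a GC correction (natural spline with 5 degrees of freedom) and each library left out; the b2-over-b1 contrast, the fit without the libraries numbered 4 and the GC correction within b2 were added after seeing the data. Replicate numbers did not pair the libraries: the correlation of deviations was not above 0.1 in every same-numbered pair.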

Additional observations from a re-analysis of the deposited data

Results flagged for a closer look

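Of 32 named values checked in the 4 R273H P72 libraries, 1 had a library far from the rest of its group: RPL7 had 473 CPM in replicate 1, the b2 library, against 572 to 587 CPM in the b1 libraries. A test of this kind marks about 1 in 20 groups by chance.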

How the results depend on the processing

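Of 34 single-gene fold changes, all kept their sign under every alternative but RPL7A on P72 (R273H over R175H), which was -0.001 without the batch term. RLE, TMM without the ribosomal protein genes and the 10 CPM filter left each of these 34 on its side of the threshold; of the 15 batch calls, RLE and TMM without these genes each kept 14, and the 10 CPM filter gave 18 for batch and 27 for R273H over R175H on P72. The call count for R72 over P72 on R175H was 13 with no filter, 7 with at least 10 CPM in 3 libraries, 11 by DESeq2, 0 without the batch term, 2 after GC correction and 2 without the libraries numbered 4; leaving out 1 library gave 0 to 8. For R72 over P72 on R273H it was 2 with no filter and 3 by DESeq2, and the small subunit median was 0.014 without the batch term, -0.011 in b2 alone, -0.008 in b2 with GC correction and -0.007 to 0.089 with 1 library left out. For the difference of the R72 effects the count was 2 with no filter, 3 by DESeq2, 1 by limma-voom, in b2 alone and in b2 with GC correction, and 0 to 2 with 1 library left out; its medians were 0.127 to 0.287 (large) and 0.039 to 0.253 (small) then, and 0.234 (small) without the batch term. For R273H over R175H on P72 the count was 12 in b2 alone, with or without GC correction, and 15 to 29 with 1 library left out; the large median was -0.328 without the batch term and the small median -0.291 to -0.170 with 1 library left out. On R72 the large median was then -0.114 to 0.006. For batch the count was 23 without the libraries numbered 4 and 4 to 20 with 1 library left out, and the small median 0.095 after GC correction. Without RPL41 and RPS10 the summed large subunit was 10217, 9740, 10265 and 11820 CPM and the small 16251, 17169, 17024 and 19454 CPM in R273H R72, R273H P72, R175H R72 and R175H P72. The cause of these shifts was not tested. Counts under the alternatives, here and above, are mostly given without the share of all genes called in the same fit. A shift in such a count can therefore not be told apart from a shift in calls over all genes. With the replicate block, though the numbers share no stated source, 0 genes were called for R72 on R175H, 21 for R273H over R175H on P72 and 8 for batch; the small median for R72 on R273H was 0.019, the medians of the difference 0.150 and 0.075, and the large median of R273H over R175H on R72 -0.119. Adding pseudogene counts was not run, as 1 of 1132 pseudogenes named for these genes has a row in the table. With 1 R273H R72 library, small differences were not detectable.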
